A study of Mus musculus with 12 samples.

Results

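Spi1, Cebpa, Cebpb, Irf8 and Ikzf1 are transcription factor genes that steer blood cells towards myeloid and lymphoid fates. They were chosen by name, 5 of the 35976 gene names measured, and all 5 were found in each of the 12 libraries. The cells came from the mouse embryonic stem cell line A2lox.cre carrying a doxycycline-inducible RUNX1-EVI1 construct, a fusion found in leukaemia that joins the blood-forming factor RUNX1 to the zinc finger protein EVI1. Every group carried the construct, controls included, and per the labels single colonies were expanded after neomycin selection, without a statement of how many entered the libraries. FLK1-positive cells from embryoid bodies were cultured with VEGF and IL-6. The PlusDox groups then had 0.5 µg/ml doxycycline for 18 hours, and the NoDox groups had none. Sorting split each arm into a first (HE1) and a second (HE2) hemogenic endothelial population and blood progenitors (HP), which gave PlusDox and NoDox groups of HE1, HE2 and HP with 2 libraries each. Hemogenic endothelium is vessel lining from which blood cells bud. The labels used here do not give the gates, and they call the replicates biological without saying more. No cells without the construct were given doxycycline among these libraries, so effects of the drug and of the fusion cannot be told apart. The title of the series names lineage determination under the fusion as its subject.

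PU.1, the product of Spi1, is an ETS family factor that turns on receptors for myeloid growth factors and is also needed for early lymphoid cells. C/EBPα, from Cebpa, is needed to form granulocyte and monocyte progenitors. C/EBPβ, from Cebpb, acts in macrophages and in granulocyte production under stress. IRF8, which binds DNA together with PU.1, directs monocyte and dendritic cell fate. Ikaros, from Ikzf1, is a zinc finger factor needed for lymphoid development that works with the chromatin remodelling complex NuRD. RUNX1 is known to act on Spi1 as blood cells emerge.

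The deposited values were read as FPKM (fragments per length of transcript and per mapped fragments), a level scaled by transcript length, so that levels can be set side by side between genes. Genes were tested with limma on log2(FPKM + 1), where the added 1 shrinks the differences of genes near 0. A gene was called when its p, adjusted by the Benjamini-Hochberg method over the 13316 genes tested, was below 0.05. All 5 factors passed the filter of at least 1 FPKM in at least 2 libraries. Irf8 passed it only through 3 HP libraries. Cebpa passed it through 6 libraries, those of PlusDox HE2 and of both HP groups. Across the 12 libraries, 11461 to 12174 genes reached 1 FPKM, and depth relative to the median library ran from 0.584 to 1.60. Lars2, a mitochondrial tRNA ligase gene, stood above 1000 FPKM in 5 libraries and below it in 7. In HE1 and in HP each arm held 1 Lars2-high library, and in HE2 only PlusDox replicate 2 was one. The populations were checked against surface genes. Tek, an endothelial receptor gene, was lowest in HP, with group means of 94.9, 82.8 and 13.7 FPKM in PlusDox HE1, HE2 and HP and of 153, 71.8 and 7.57 FPKM in NoDox HE1, HE2 and HP. Itga2b (CD41), which marks early blood cells, had its highest means in HP, at 17.3, 81.0 and 198 FPKM in PlusDox and 40.1, 130 and 175 FPKM in NoDox, and Kit was at least 21.3 FPKM in all 12 libraries. Of the genes whose products form the fusion, Runx1 was called with doxycycline in no population, and Mecom, which encodes EVI1, was called in HP (5.18 and 5.51 FPKM in PlusDox, 0.194 and 0.205 FPKM in NoDox, log2 2.40 ± 0.32, limma adjusted p = 0.0058). Gene-level values cannot tell the fusion from the cells' own transcripts.

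The stretch around the start of transcription is shown for a called factor, Cebpa, and for the second start of Ikzf1, where letters that ETS factors such as PU.1 bind were found. The sequences are RefSeq's for GRCm38.p6, 250 bases before and 50 after each start, both on the plus strand, Cebpa at chr7:35119043-35119342 and Ikzf1 at chr11:11689927-11690226. Capitals mark AGGAAG or its reverse complement, which the Cebpa window does not hold.
Cebpa: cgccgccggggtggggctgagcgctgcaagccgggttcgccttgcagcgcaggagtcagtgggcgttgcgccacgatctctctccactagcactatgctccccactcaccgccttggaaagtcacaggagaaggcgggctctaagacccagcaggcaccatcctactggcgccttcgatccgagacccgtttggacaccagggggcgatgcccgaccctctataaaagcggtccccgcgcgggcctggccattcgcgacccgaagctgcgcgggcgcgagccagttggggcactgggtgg
Ikzf1, second start: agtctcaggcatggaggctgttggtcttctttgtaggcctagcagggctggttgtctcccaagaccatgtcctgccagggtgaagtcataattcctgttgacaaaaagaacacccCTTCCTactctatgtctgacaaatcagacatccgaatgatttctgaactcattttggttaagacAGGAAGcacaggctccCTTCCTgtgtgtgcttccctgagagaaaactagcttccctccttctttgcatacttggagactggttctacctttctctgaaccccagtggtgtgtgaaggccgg
AGGAAG was found 3 times in the second Ikzf1 window, at −135, −71 and −55 relative to the start, and 35.4% of 32851 mouse promoter windows hold it on either strand. Promoter windows were matched for 4 of the factors, 6 windows in all, and Spi1 was not among them. The other 5 windows held none of 5 motifs searched on both strands, which were TGTGGT for RUNX, GATAAG for GATA factors, AGGAAG, TTGCNNAA for C/EBP and, for IRF, GAAA repeated after a gap of any 2 bases. Of all windows, 16.8%, 7.44%, 10.8% and 3.44% held the RUNX, GATA, C/EBP and IRF letters. No 2 matches overlapped. The Cebpa window was 67.3% G and C, the first Ikzf1 window 81.3% and the second 49.0%.

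Spi1 (mm10 chromosome 2, 91082374 to 91115759, protein coding) was higher with doxycycline in every population, by its library values. In HE1 it stood at 3.94 and 1.52 FPKM in PlusDox and at 0.784 and 0.635 FPKM in NoDox. In HE2 it stood at 71.9 and 55.4 FPKM in PlusDox and at 25.3 and 23.5 FPKM in NoDox. In HP it stood at 91.0 and 72.5 FPKM in PlusDox and at 48.2 and 53.3 FPKM in NoDox. Both PlusDox libraries lay above both NoDox libraries in each of the 3 populations, and no 2 neighbouring groups overlapped in the order NoDox HE1, PlusDox HE1, NoDox HE2, NoDox HP, PlusDox HE2, PlusDox HP. PlusDox HE2 thus held more Spi1 RNA per unit of total than NoDox HP. In bulk RNA, a change in the share of cells that express a gene and a change in RNA per cell cannot be told apart.

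The test called Spi1 in HE2, where the log2 difference was 1.34 ± 0.27 (SE, as for all differences; limma adjusted p = 0.0154), a 2.61-fold ratio of means of 63.7 ± 11.6 FPKM in PlusDox and 24.4 ± 1.33 FPKM in NoDox (SD, n = 2 each). The mean of the 3 population differences was called as well, at 1.02 ± 0.16 (limma adjusted p = 0.00196). In HE1 the log2 difference was 1.05 ± 0.27 and in HP 0.67 ± 0.27, and neither passed over all genes (limma adjusted p = 0.106 in HE1 and 0.432 in HP). The 3 differences were not shown to differ from each other. HE2 minus HE1 was 0.29 (95% interval −0.55 to 1.14), HP minus HE2 was −0.67 (−1.51 to 0.18) and HP minus HE1 was −0.38 (−1.22 to 0.47). The HE2 call was lost without NoDox HE2 replicate 1 (1.39, limma adjusted p = 0.085), NoDox HE2 replicate 2 (1.28, 0.0533) or PlusDox HE2 replicate 1 (1.15, 0.0712), and without the filter on low values (1.34, 0.0683). Without PlusDox HE1 replicate 2, the shallowest library, Spi1 was called in HE1 too (1.53, limma adjusted p = 0.017), and without PlusDox HE1 replicate 1 the difference there was 0.56.

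Lars2 class moved with doxycycline in HE2, so Spi1 was also read within a class. Among Lars2-low libraries it stood at 3.94 FPKM in PlusDox HE1 and 0.635 in NoDox HE1. In HE2 the Lars2-low values were 71.9 FPKM in PlusDox and a mean of 24.4 FPKM in NoDox, and in HP 91.0 FPKM in PlusDox and 48.2 FPKM in NoDox. Among Lars2-high libraries Spi1 stood at 1.52 FPKM in PlusDox HE1 and 0.784 FPKM in NoDox HE1, and at 72.5 FPKM in PlusDox HP and 53.3 FPKM in NoDox HP. Spi1 was higher in PlusDox wherever a class held both arms. In HE2 that was the Lars2-low class alone, with 1 PlusDox library against 2 of NoDox. In a fit of the 7 Lars2-low libraries the HE2 difference was 1.52 and not called (limma adjusted p = 0.127), with fewer libraries to set the spread.

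**Figure D1:**
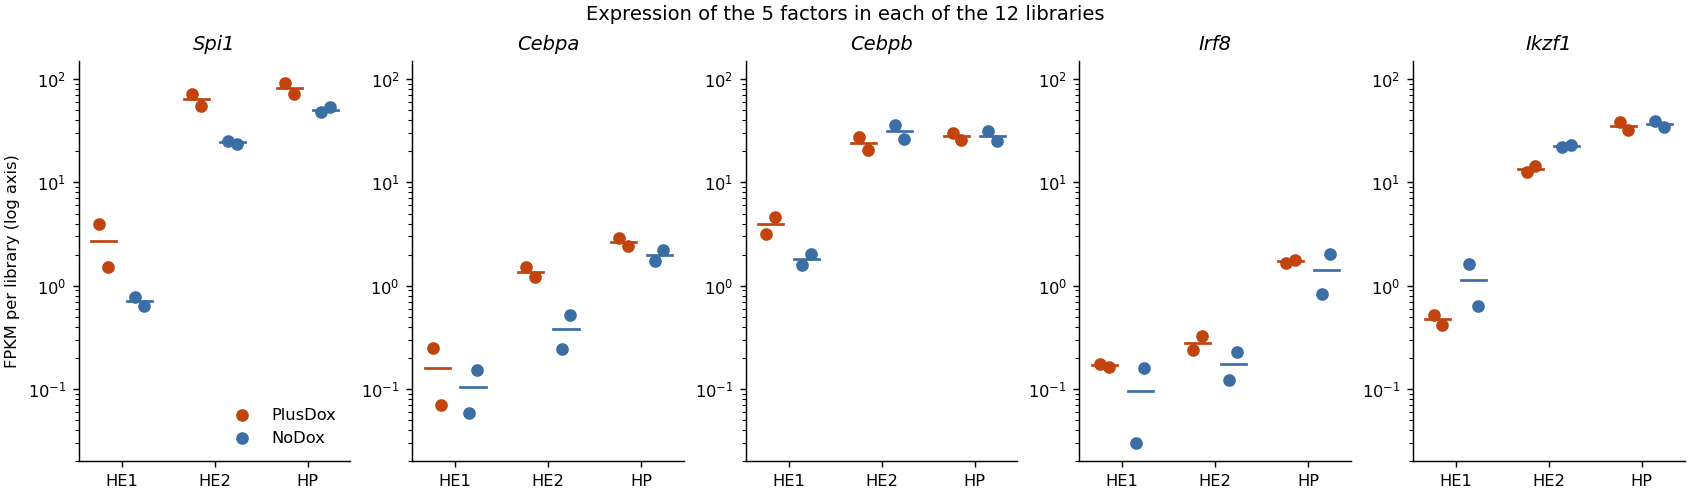
FPKM of each factor in each library (points, log axis), by population, with PlusDox left of NoDox. Bars are group means of 2 libraries. Spi1, which runs from 0.635 to 91.0 FPKM, is the factor whose PlusDox points lie above the NoDox points without overlap in HE1, HE2 and HP alike.

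Cebpa (mm10 chromosome 7, 35119293 to 35121928, protein coding) was low throughout and rose with doxycycline in HE2. There it stood at 1.5 and 1.2 FPKM in PlusDox and at 0.243 and 0.513 FPKM in NoDox. In HE1 the values were 0.251 and 0.0696 FPKM in PlusDox and 0.0579 and 0.152 FPKM in NoDox, and these groups overlapped. In HP it stood at 2.88 and 2.44 FPKM in PlusDox and at 1.72 and 2.24 FPKM in NoDox, without overlap. The log2 difference in HE2 was 0.78 ± 0.20 (limma adjusted p = 0.0417), on means of 1.35 ± 0.215 FPKM in PlusDox and 0.378 ± 0.191 FPKM in NoDox (SD, n = 2 each), a ratio of 3.58. In HE1 the log2 difference was 0.07 (limma adjusted p = 0.986; −0.05 without PlusDox HE1 replicate 1) and in HP 0.30 (0.806).

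The HE2 call of Cebpa lay close to the threshold. It ended in 14 of 21 alternative settings, and leaving out any library other than the 2 of PlusDox HE1 was enough, at log2 differences of 0.63 to 0.92 and limma adjusted p-values of 0.0511 to 0.294. With 0.1 added in place of 1, the difference was 1.65 and not called (limma adjusted p = 0.0819). Of the HE2 libraries only those of PlusDox reached the 1 FPKM of the filter. Without the filter the difference was 0.78 and not called (limma adjusted p = 0.0627). The HE2 difference minus the HE1 difference was 0.71 (95% interval 0.09 to 1.32, limma adjusted p = 0.636). In the order of levels NoDox HE1, PlusDox HE1 and NoDox HE2 overlapped as neighbours, and PlusDox HE2, NoDox HP and PlusDox HP followed without overlap.

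Cebpb (mm10 chromosome 2, 167688915 to 167690432, protein coding) was called with doxycycline in no population. In HE1 it stood at 3.17 and 4.68 FPKM in PlusDox and at 1.57 and 2.03 FPKM in NoDox, without overlap. In HE2 it stood at 27.3 and 20.7 FPKM in PlusDox and at 36.3 and 26.3 FPKM in NoDox, which overlapped. In HP it stood at 30.2 and 25.8 FPKM in PlusDox and at 31.3 and 25.4 FPKM in NoDox, which overlapped too. The log2 differences were 0.80 ± 0.23 in HE1 (limma adjusted p = 0.155), −0.36 ± 0.23 in HE2 (0.395) and −0.01 ± 0.23 in HP (1). The sign in HP turned with quantile normalization (0.0085) and without NoDox HP replicate 1 (0.13) or PlusDox HP replicate 2 (0.10). The HE2 difference minus the HE1 difference was −1.16 ± 0.33, an unadjusted p of 0.00433 that did not pass over all genes (limma adjusted p = 0.372, 95% interval −1.89 to −0.44).

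Irf8 (mm10 chromosome 8, 120736358 to 120756694, protein coding) was at most 0.323 FPKM in the HE1 and HE2 libraries. In HP it stood at 1.66 and 1.79 FPKM in PlusDox and at 0.836 and 2.01 FPKM in NoDox, and the NoDox libraries lay on either side of the PlusDox ones. In HE2 it stood at 0.235 and 0.323 FPKM in PlusDox and at 0.122 and 0.228 FPKM in NoDox. In HE1 it stood at 0.175 and 0.162 FPKM in PlusDox and at 0.0301 and 0.160 FPKM in NoDox. Both PlusDox libraries lay above both NoDox libraries in HE1 and in HE2, by less than 1 FPKM. The log2 differences were 0.10, 0.12 and 0.21 in HE1, HE2 and HP, each ± 0.23, and none was called (limma adjusted p = 0.979, 0.799 and 0.948). The HP difference was −0.15 without NoDox HP replicate 1 and 0.57 without NoDox HP replicate 2, and the HE2 difference was −0.0037 with quantile normalization.

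Ikzf1 (mm10 chromosome 11, 11684962 to 11772930, protein coding) lay lower with doxycycline in HE1 and HE2 without passing the test. In HE1 it stood at 0.524 and 0.419 FPKM in PlusDox and at 1.61 and 0.636 FPKM in NoDox. In HE2 it stood at 12.6 and 14.4 FPKM in PlusDox and at 22.1 and 23.0 FPKM in NoDox. In HP it stood at 38.8 and 32.5 FPKM in PlusDox and at 39.5 and 34.6 FPKM in NoDox. The arms did not overlap in HE1 or HE2 and overlapped in HP. The log2 difference in HE2 was −0.70 ± 0.22 (limma adjusted p = 0.0885), on means of 13.5 ± 1.26 FPKM in PlusDox and 22.6 ± 0.628 FPKM in NoDox (SD, n = 2 each), a ratio of 0.600. It was −0.49 ± 0.22 in HE1 (limma adjusted p = 0.517), −0.06 ± 0.22 in HP (1) and −0.42 ± 0.13 for the mean of the populations (0.0623). The HP difference turned to 0.04 without NoDox HP replicate 1 and to 0.07 without PlusDox HP replicate 2. The mean over populations was called without NoDox HE1 replicate 2 (−0.53, limma adjusted p = 0.0183).

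Of the 5 factors, 2 were thus called higher in HE2 (Spi1 and Cebpa) and none lower, where 6.06% of all tested genes were called, 3.82% higher and 2.24% lower. Cebpa had reached 1 FPKM in PlusDox HE2 and not in NoDox HE2, so its place in this count is no support for a rise of the set. None of the 5 factors was called in HE1, where 1.37% of genes were, or in HP, where 0.834% were. For the mean of the populations Spi1 alone of the 5 was called, with 10.6% of genes called. None of the factors was called in a difference between 2 populations' effects, in which 0.0451% (HE2 minus HE1), 0.015% (HP minus HE2) and 0.0375% (HP minus HE1) of genes were. The median difference over the 5 factors was 0.10, 0.12 and 0.21 in HE1, HE2 and HP, where the median over all genes was −0.07, −0.05 and 0.00. Unadjusted p-values below 0.05 were reached in HE1 by Spi1 (0.00249), Cebpb (0.00518) and Ikzf1 (0.0494), and in HP by Spi1 (0.031).

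**Figure D2:**
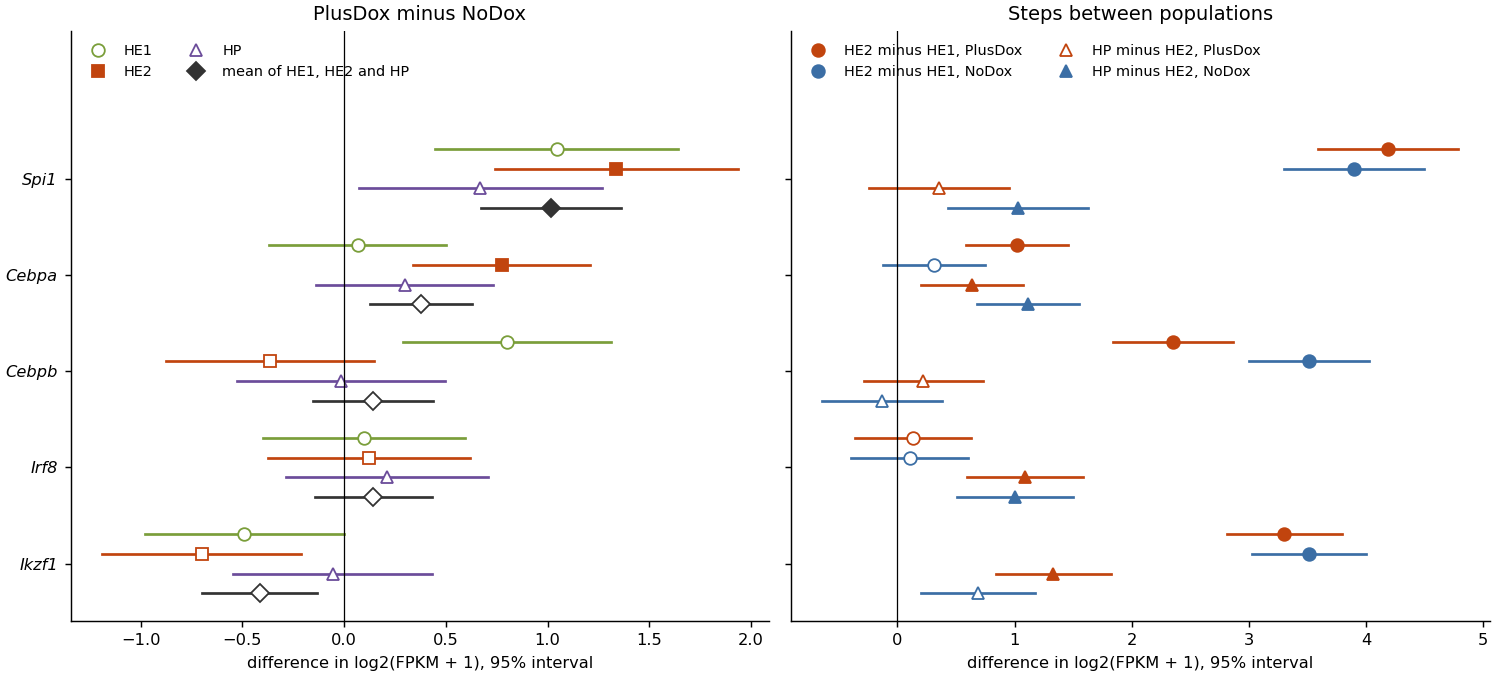
Log2 differences of each factor with 95% intervals, on the log2(FPKM + 1) scale. The left panel gives PlusDox minus NoDox in each population and for their mean, the right panel the steps between populations in each arm, and filled symbols mark an adjusted p below 0.05. In the left panel the filled symbols belong to Spi1 (HE2, 1.34, and the mean, 1.02) and Cebpa (HE2, 0.78).

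Spi1 and Ikzf1 lay on opposite sides of 0 in HE2, and the ratio of their FPKM, chosen after the values were seen, kept the arms apart. In HE1 it was 7.52 and 3.63 in PlusDox and 0.488 and 0.998 in NoDox. In HE2 it was 5.68 and 3.84 in PlusDox and 1.14 and 1.02 in NoDox, and in HP 2.35 and 2.23 in PlusDox and 1.22 and 1.54 in NoDox. In HE2 and HP each PlusDox library held more Spi1 than Ikzf1 per unit length, by more than any NoDox library did. In HE1 Ikzf1 was 0.524 and 0.419 FPKM in PlusDox and 1.61 and 0.636 FPKM in NoDox, too low for a ratio to carry weight. The ratio of Spi1 to Cebpb in HE2 was 2.63 and 2.67 in PlusDox and 0.698 and 0.890 in NoDox, so that the order of these genes differed between the arms there. In HP it was 3.01 and 2.81 in PlusDox and 1.54 and 2.1 in NoDox, and in HE1, where the arms overlapped, 1.24 and 0.325 in PlusDox and 0.498 and 0.313 in NoDox. The ratio of Spi1 to Cebpa did not separate the arms in HE2, at 47.8 and 46.2 in PlusDox and 104 and 45.7 in NoDox.

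Gata1, the erythroid and megakaryocyte factor known to oppose PU.1, was set against Spi1 in the same way, with the pair again picked after the values were seen. In HE2 the ratio of Spi1 to Gata1 was 4.97 and 7.83 in PlusDox and 1.24 and 3.22 in NoDox. In HP it was 1.69 and 1.27 in PlusDox and 0.535 and 0.711 in NoDox, so that Spi1 exceeded Gata1 in both PlusDox HP libraries and in neither NoDox HP library. Gata1 itself was not called in HP (53.9 and 56.9 FPKM in PlusDox, 90.2 and 74.9 FPKM in NoDox, log2 −0.56 ± 0.46, limma adjusted p = 0.888). In HE1 Gata1 was 1.05 and 0.0474 FPKM in PlusDox and 1.21 and 0.321 FPKM in NoDox, too low for a ratio to carry weight. The ratio of Spi1 to Gata2, a factor of early progenitors, was 2.94 and 3.41 in PlusDox HE2 and 1.35 and 1.56 in NoDox HE2, and in HP the arms overlapped, at 6.32 and 4.09 in PlusDox and 5.43 and 5.79 in NoDox.

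**Figure D3:**
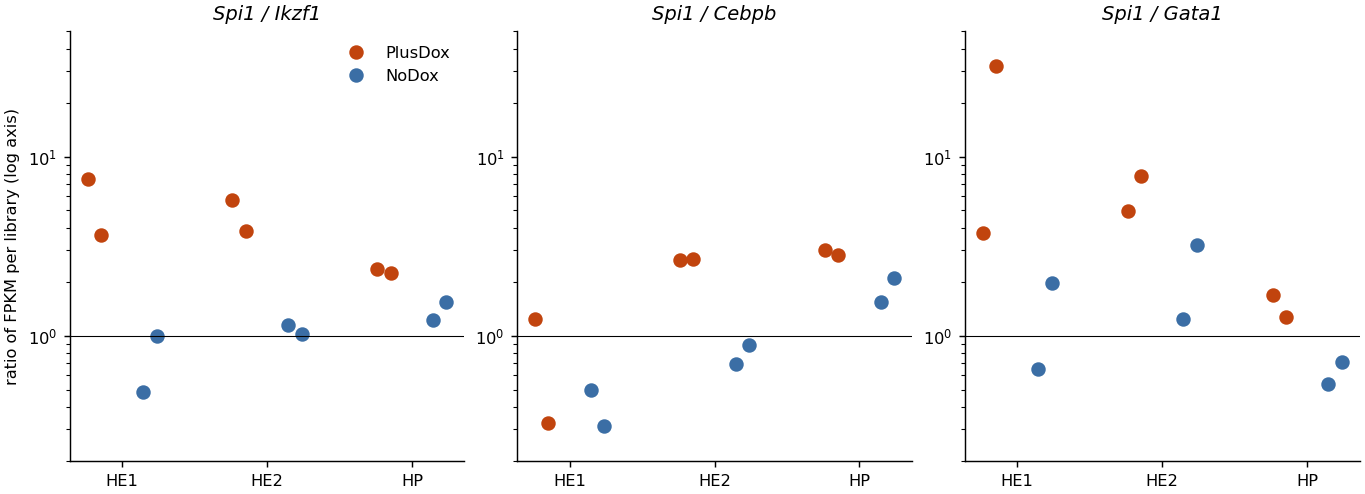
Ratio of Spi1 to Ikzf1, Cebpb and Gata1 FPKM in each library (points, log axis), with PlusDox left of NoDox in each population and a line at 1. For Spi1 over Ikzf1, the PlusDox libraries run from 2.23 to 7.52 and the NoDox libraries from 0.488 to 1.54. In HE1, which holds the values 7.52 and 0.488, Ikzf1 and Gata1 are too low for a ratio to carry weight.

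The steps between populations were called for different sets of factors. The HE2 populations held far more Spi1, Ikzf1 and Cebpb than the HE1 populations, in both arms. In PlusDox the log2 difference of HE2 from HE1 was 4.18 ± 0.27 for Spi1, 3.30 ± 0.22 for Ikzf1, 2.35 ± 0.23 for Cebpb and 1.02 ± 0.20 for Cebpa (limma adjusted p = 1.25e-05, 1.26e-05, 0.000148 and 0.00869). Irf8 was not called (0.13 ± 0.23). In NoDox it was 3.89 ± 0.27 for Spi1, 3.52 ± 0.23 for Cebpb and 3.51 ± 0.22 for Ikzf1 (limma adjusted p = 1.66e-05, 1.54e-05 and 1.26e-05), while Cebpa (0.31 ± 0.20, limma adjusted p = 0.327) and Irf8 (0.10 ± 0.23) were not called. So 4 of the 5 factors were called higher at this step in PlusDox, where 5.7% of all genes were, and 3 of 5 in NoDox, where 5.67% were. Cebpa had passed the filter only through PlusDox HE2 and HP libraries, so its place in the PlusDox count is no support for a rise of the set. Without the filter its PlusDox step was still called (1.02, limma adjusted p = 0.0198). The median of all genes was itself shifted by 0.17 in PlusDox and 0.16 in NoDox at this step, and the called differences exceed that shift. In the ratio of means, Spi1 was 23.3 times higher in PlusDox HE2 than in PlusDox HE1, and 34.4 times higher in NoDox HE2 than in NoDox HE1.

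Irf8 and Cebpa were called at the step to HP in both arms. The size of a factor's 2 steps was not compared by a test. In PlusDox the log2 difference of HP from HE2 was 1.33 ± 0.22 for Ikzf1, 1.09 ± 0.23 for Irf8 and 0.64 ± 0.20 for Cebpa (limma adjusted p = 0.00151, 0.00587 and 0.0465). Spi1 (0.36 ± 0.27, limma adjusted p = 0.444) and Cebpb (0.22 ± 0.23, 0.604) were not called there. In NoDox it was 1.11 ± 0.20 for Cebpa, 1.03 ± 0.27 for Spi1 and 1.00 ± 0.23 for Irf8 (limma adjusted p = 0.0021, 0.023 and 0.00937), with Ikzf1 at 0.69 ± 0.22 (0.0585) and Cebpb at −0.13 ± 0.23 (0.782). In each arm 3 of 5 were called higher, where 5.96% of all genes in PlusDox and 5.31% in NoDox were called higher. Irf8 had passed the filter only through HP libraries, which its steps to HP compare, so its calls and its place in these counts are no support for a rise of the set. Without the filter both Irf8 steps were still called (1.09, limma adjusted p = 0.0145 in PlusDox, and 1.00, 0.0208 in NoDox). In NoDox, Cebpa too reached 1 FPKM on the HP side alone, so the same limit holds for its NoDox step. Without the filter that step was still called (1.11, limma adjusted p = 0.00563). The PlusDox step of Cebpa was not (0.64, limma adjusted p = 0.0537), and neither was the NoDox step of Spi1 (1.03, 0.0774). With 0.1 added in place of 1, these steps were not called either (0.93, limma adjusted p = 0.255 for Cebpa, and 1.05, 0.0583 for Spi1). That Spi1 was called at this step in NoDox alone, and Ikzf1 in PlusDox alone, was not a shown difference between the arms. The arms' steps differed by −0.67 for Spi1 (limma adjusted p = 0.864) and 0.64 for Ikzf1 (0.794).

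Single libraries decided several of these calls. Leaving out PlusDox HE1 replicate 2 (0.91, limma adjusted p = 0.0658) or PlusDox HE2 replicate 1 (0.93, 0.0828) ended the Cebpa call of the first step. Without either NoDox HE2 library or either NoDox HP library the Spi1 call of the second step in NoDox was lost, at 0.96 to 1.10 (limma adjusted p = 0.066 to 0.138). The Irf8 call in NoDox was lost without NoDox HE2 replicate 1 (0.94, limma adjusted p = 0.0547) or NoDox HP replicate 2 (0.65, 0.103). The Cebpa call at the second step in PlusDox was lost without any of 8 libraries, at 0.54 to 0.73 (limma adjusted p = 0.053 to 0.254). Without NoDox HE1 replicate 1 or 2, Ikzf1 was called at the second step in NoDox (0.69, limma adjusted p = 0.0307 and 0.0299).

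The families and partners of the factors showed few calls with doxycycline. Of 5 further C/EBP family genes 4 were tested and none was called in any population. Cebpz, which encodes a CCAAT-binding factor outside the leucine zipper family, read 28.2 and 26.3 FPKM in PlusDox HE2 and 30.4 and 30.0 FPKM in NoDox HE2, and Cebpg, which lacks an activation domain, read 8.84 and 10.9 FPKM in PlusDox HE2 and 6.32 and 8.84 FPKM in NoDox HE2. Of 9 further ETS genes 7 were tested and none was called in a population. The endothelial and blood ETS factors Fli1 (69.3 and 82.0 FPKM in PlusDox HE2, 59.5 and 81.8 FPKM in NoDox HE2) and Ets1 (61.0 and 81.0 FPKM in PlusDox HE2, 47.0 and 87.4 FPKM in NoDox HE2) overlapped between the arms. Of the closest relatives of Spi1, Spib was at most 0.219 FPKM and Spic was at 0 in all 12 libraries.

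Of 8 further interferon regulatory factors 7 were tested, with none called in HE1 and 1 called higher in HE2 and in HP, and the median log2 difference in HE2 was 0.54 (−0.05 over all genes). Irf4, which stands in for IRF8 in B cells, was at most 0.38 FPKM throughout. Of the Ikaros family, 2 of 4 genes were tested and neither was called. Ikzf2 (Helios) read 13.7 and 12.5 FPKM in PlusDox HE2 and 11.8 and 12.2 FPKM in NoDox HE2. None of 11 NuRD subunit genes was called in a population, and their median log2 difference was −0.40 in HE2 (−0.05 over all genes). They summed to 645 and 504 FPKM in PlusDox HE2, the second in the Lars2-high library, and to 757 and 739 FPKM in NoDox HE2. In HE1 and HP too, the sum was lower in the Lars2-high library of each arm. The part of Lars2 class in the HE2 median was not tested.

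Trib1, Trib2 and Cop1 encode the proteins that mark C/EBPα for degradation, and none of the 3 was called in any population. Cop1, listed under its older symbol Rfwd2, read 16.1 and 20.1 FPKM in PlusDox HE2 and 14.6 and 17.7 FPKM in NoDox HE2, and Trib1 read 4.84 and 5.32 FPKM in PlusDox HE2 and 2.40 and 5.38 FPKM in NoDox HE2. None of 7 tested genes of 10 other myeloid factors and none of 7 erythroid and megakaryocyte factors was called in a population. Their most abundant members were Jun and Zeb2, and Tal1 and Zfpm1. In HE2 Tal1 read 68.4 and 52.2 FPKM in PlusDox and 82.9 and 50.1 FPKM in NoDox.

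Genes acting downstream in myeloid cells moved in both directions in HE2. Of 20 myeloid receptor and adaptor genes 17 were tested, of which 3 rose and 2 fell, with a median of 0.09. Tyrobp (DAP12), a signalling adaptor, read 35.8 and 31.5 FPKM in PlusDox HE2 and 6.67 and 9.42 FPKM in NoDox HE2 (log2 1.95 ± 0.28, limma adjusted p = 0.0026). Clec7a (dectin 1), a receptor for fungal glucans, rose by 1.98 ± 0.43 and Csf2ra, the alpha chain of the GM-CSF receptor, by 1.21 ± 0.27 (limma adjusted p = 0.0205 and 0.0248). Csf3r, the G-CSF receptor and a known C/EBPα target, read 2.05 and 1.21 FPKM in PlusDox HE2 and 5.38 and 6.24 FPKM in NoDox HE2 (−1.39 ± 0.25, limma adjusted p = 0.00833), and Fcgr3, a low-affinity antibody receptor, fell by 1.04 on the log2 scale (0.0362). Csf1r, the M-CSF receptor and a known PU.1 target, named after its values were seen, read 2.28 and 2.43 FPKM in PlusDox HE2 and 0.840 and 1.13 FPKM in NoDox HE2, and was not called (0.76 ± 0.23, limma adjusted p = 0.0694). The Tyrobp call held without each library in turn and without the filter (limma adjusted p = 0.0257). It was lost with 0.1 added in place of 1 (2.07, limma adjusted p = 0.189). The Clec7a call was lost without NoDox HE2 replicate 1 (1.37, limma adjusted p = 0.189) or PlusDox HE2 replicate 2 (1.61, 0.164), and the Csf3r call without PlusDox HE2 replicate 2 (−1.16, 0.0867). The Csf2ra call was lost without any 1 of the HE2 libraries (1.06 to 1.36, limma adjusted p = 0.0505 to 0.165), and the Fcgr3 call without either NoDox HE1 library, NoDox HE2 replicate 2 or PlusDox HE2 replicate 2 (−1.04 to −0.70, 0.0526 to 0.280). The Clec7a, Csf2ra, Csf3r and Fcgr3 calls were also lost without the filter (limma adjusted p = 0.0515 to 0.118).

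Of 16 myeloid effector genes 9 were tested, 1 rose and 2 fell in HE2. Mpo, the granule enzyme myeloperoxidase, read 3.04 and 1.64 FPKM in PlusDox HE2 and 16.9 and 14.1 FPKM in NoDox HE2 (log2 −2.33 ± 0.27, limma adjusted p = 0.000801). Cst7, a cathepsin inhibitor, fell by 0.78 on the log2 scale (limma adjusted p = 0.0345), a call that ended without any 1 library of NoDox HE1, NoDox HE2 or PlusDox HE2 (−0.93 to −0.62, 0.0502 to 0.283). Cst7 was not called without the filter either (limma adjusted p = 0.0594). The Mpo call held without each library in turn. Lyz2, lysozyme, read 14.1 and 13.7 FPKM in PlusDox HE2 and 13.7 and 17.4 FPKM in NoDox HE2 and was not called. So Mpo and Csf3r lay lower in PlusDox HE2 while Spi1 and Cebpa lay higher there. None of the receptor or effector genes was called in HE1 or in HP.

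Lymphoid genes were mostly near 0. Of 16 genes of lymphoid cells 2 passed the filter, and Il7r, Rag1, Rag2, Dntt, Igll1, Flt3, Cd3e, Blnk and Ly6d stayed at or under 0.378 FPKM in all 12 libraries. Ltb, lymphotoxin beta, was called in every population. It passed the filter only through PlusDox libraries, so its direction was in part fixed by the filter, and without the filter it was still called in each population (limma adjusted p = 0.00182 in HE1, 0.00096 in HE2 and 0.0145 in HP). It read 5.11 and 5.54 FPKM in PlusDox HE1 against 0.093 and 0.102 FPKM in NoDox HE1 (log2 2.53 ± 0.18, limma adjusted p = 0.000127). In HE2 it read 10.1 and 10.3 FPKM in PlusDox and 0.338 and 0.336 FPKM in NoDox (3.06 ± 0.18, limma adjusted p = 1.43e-05), and in HP 3.92 and 4.96 FPKM in PlusDox and 0.848 and 0.861 FPKM in NoDox (1.55 ± 0.18, 0.00305). Cd79b, a chain of the B cell receptor, was called in HE2 (9.21 and 6.14 FPKM in PlusDox, 1.16 and 1.96 FPKM in NoDox, 1.76 ± 0.27, limma adjusted p = 0.00367) and in HP (5.78 and 3.79 FPKM in PlusDox, 1.41 and 0.850 FPKM in NoDox, 1.43 ± 0.27, 0.0339), where the call was lost without any 1 library of HP or of NoDox HE1 (1.18 to 1.68, 0.0616 to 0.260). Without the filter Cd79b was called in HE2 (limma adjusted p = 0.0345) and not in HP (0.135). Its partner chain Cd79a, named after its values were seen, was at most 1.15 FPKM.

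Of 14 lymphoid transcription factors 12 were tested, with 1 called higher in HE2 and 1 in HP and none lower. Bcl11a, a factor needed for B cell development that also silences embryonic globins, rose in HE2 (3.73 and 4.14 FPKM in PlusDox, 0.906 and 1.23 FPKM in NoDox, log2 1.26 ± 0.26, limma adjusted p = 0.0163). That call was lost without NoDox HE2 replicate 1 (1.15, limma adjusted p = 0.131) or PlusDox HE2 replicate 2 (1.2, 0.111), and without the filter (1.26, 0.0636). Id3, an inhibitor of E proteins, rose in HP (13.5 and 12.2 FPKM in PlusDox, 5.16 and 4.42 FPKM in NoDox, 1.26 ± 0.21, limma adjusted p = 0.0167), a call lost without any of the 4 HP libraries (limma adjusted p = 0.102 to 0.155). Pax5, the B cell commitment factor, was at most 0.0068 FPKM. Tcf3, which encodes the E proteins E12 and E47, read 41.5 and 32.9 FPKM in PlusDox HE2 and 48.0 and 36.0 FPKM in NoDox HE2 and was not called.

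**Figure D4:**
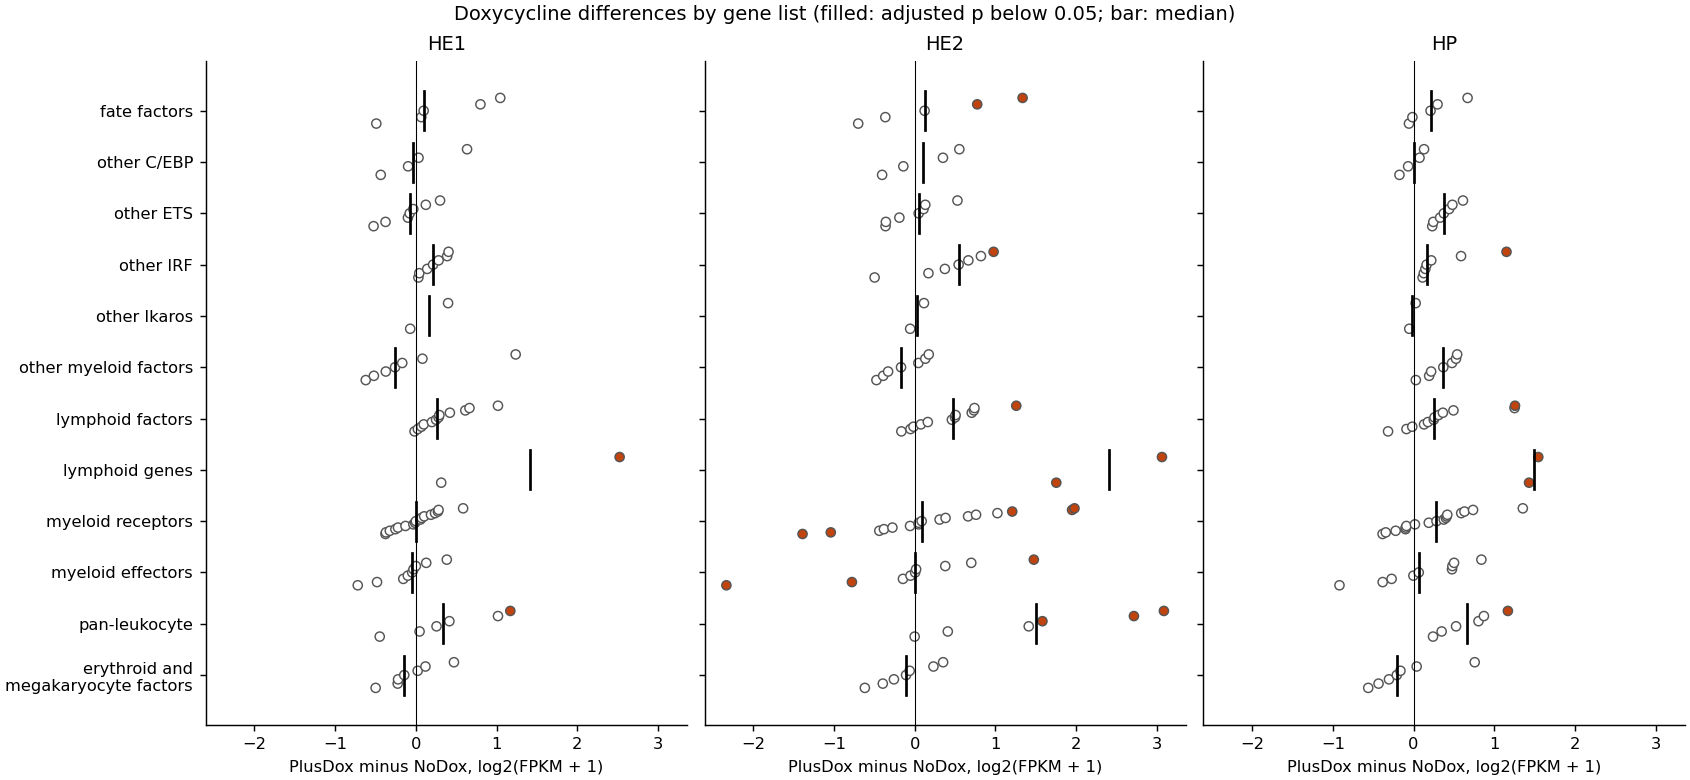
PlusDox minus NoDox log2 differences of the tested genes of each list, in HE1, HE2 and HP (points), with the list median as a bar and called genes filled. In HE2, filled points of the myeloid receptor and effector lists lie on both sides of 0, and both tested lymphoid genes lie above 1.7.

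Markers of other cells moved with Spi1 and Cebpa in HE2. Of 6 pan-leukocyte genes 3 rose there, Coro1a (log2 3.09 ± 0.32, limma adjusted p = 0.000438), Ptprc or CD45 (2.72 ± 0.27, 0.000436) and Spn (1.58 ± 0.21, 0.00172), and the list summed to 178 and 149 FPKM in PlusDox HE2 and 84.4 and 81.8 FPKM in NoDox HE2. Of 12 macrophage markers 5 were tested, and Cd68 (1.47 ± 0.21, limma adjusted p = 0.0024) and Mertk (1.02 ± 0.23, 0.0233; lost without either NoDox HE2 library or PlusDox HE2 replicate 2, 0.81 to 1.07) rose, with list sums of 28.0 and 22.5 FPKM in PlusDox HE2 and 11.8 and 12.5 FPKM in NoDox HE2. The defining macrophage genes C1qa, C1qc, Marco, Timd4 and Cd163 were at 0 in all HE2 libraries, and Adgre1 (F4/80) was at most 0.0559 FPKM there. Mast cell and basophil markers summed to at most 0.301 FPKM in PlusDox HE2 and 1.08 FPKM in NoDox HE2. Endothelial markers summed to 2094 and 1985 FPKM in PlusDox HE2 and 1093 and 1669 FPKM in NoDox HE2, with 3 of 12 called higher (Cldn5, Egfl7 and Esam), each of which lost its call without NoDox HE2 replicate 1 or without either PlusDox HE2 library (0.67 to 2.04, limma adjusted p = 0.053 to 0.313). In HP they summed to 374 and 295 FPKM in PlusDox and 169 and 148 FPKM in NoDox, with 4 of 12 called higher (Cdh5, Egfl7, Ramp2 and Sox18), none of which kept its call without NoDox HP replicate 1 (1.42 to 2.05, limma adjusted p = 0.0508 to 0.0929) or NoDox HP replicate 2 (1.22 to 1.93, 0.0626 to 0.123). In HE2 Alas2, the erythroid enzyme that starts haem synthesis, fell, with 2.32 and 3.04 FPKM in PlusDox and 8.83 and 8.91 FPKM in NoDox (log2 −1.43 ± 0.22, limma adjusted p = 0.0037), a call that held without each library in turn. Cpa3 of the mast cell list and Pdgfrb of the mesenchymal list were called lower there too, the Pdgfrb call being lost without NoDox HE2 replicate 1 (−0.81, limma adjusted p = 0.188) or PlusDox HE2 replicate 2 (−1.11, 0.151) and the Cpa3 call without any 1 library of HE2 or of NoDox HE1 (−0.77 to −0.69, 0.0558 to 0.216). Cpa3 passed the filter only through NoDox libraries, so its direction was in part fixed by the filter. It was still called without the filter (−0.73, limma adjusted p = 0.0192), and not with 0.1 added in place of 1 (−1.90, 0.0538). Erythroid markers summed to 1554 and 2310 FPKM in PlusDox HE2 and 1535 and 1772 FPKM in NoDox HE2. In HE1 Cd68 (1.21 ± 0.21, limma adjusted p = 0.0164) and the pan-leukocyte gene Laptm5 (1.17 ± 0.25, 0.0433) were called higher, and both calls were lost without either NoDox HE1 library or PlusDox HE1 replicate 1 (0.81 to 1.34). The Laptm5 call was lost without any of 9 libraries, those of NoDox HE2, NoDox HP and PlusDox HP included. The calls of Laptm5 in HE1 and of Mertk, Cldn5, Egfl7, Esam and Pdgfrb in HE2 were also lost without the filter (limma adjusted p = 0.0508 to 0.141). The part that a different mix of cells within the sort gate had in the differences of the factors was not tested.

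The genes nearest in pattern to each factor were ranked by the root mean square difference of centred log2(FPKM + 1) over the 12 libraries, among 9354 candidate genes. The samples share population and arm, so these values only describe. For Spi1 the nearest were Pla2g4a (0.56), a phospholipase, Tyrobp (0.61), Lyz2 (0.70), Fmnl1 (0.70) and Ifitm1 (0.71). For Ikzf1 they were Lyz2 (0.33), the platelet integrin Itgb3 (0.35), the ATP-gated channel P2rx1 (0.41), Dapp1 (0.43) and Lilrb4a (0.46). Cebpb lay nearest to Ikzf2 (0.42), Kcnj2 (0.45), Was (0.51), Pim2 (0.54) and Sash3 (0.54). Cebpa, whose levels the added 1 compresses, lay nearest to Sppl2a (0.16), Mbnl1, Aftph, Pdk3 and Dap, and Irf8 to Rbl1 (0.23), Cpeb4, Gtf2a2, Stk4 and Sirpa. Among the factors themselves the closest pair was Cebpa with Irf8 (0.33), both low, and then Cebpb with Ikzf1 (0.76) and Spi1 with Ikzf1 (0.85).

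**Figure D5:**
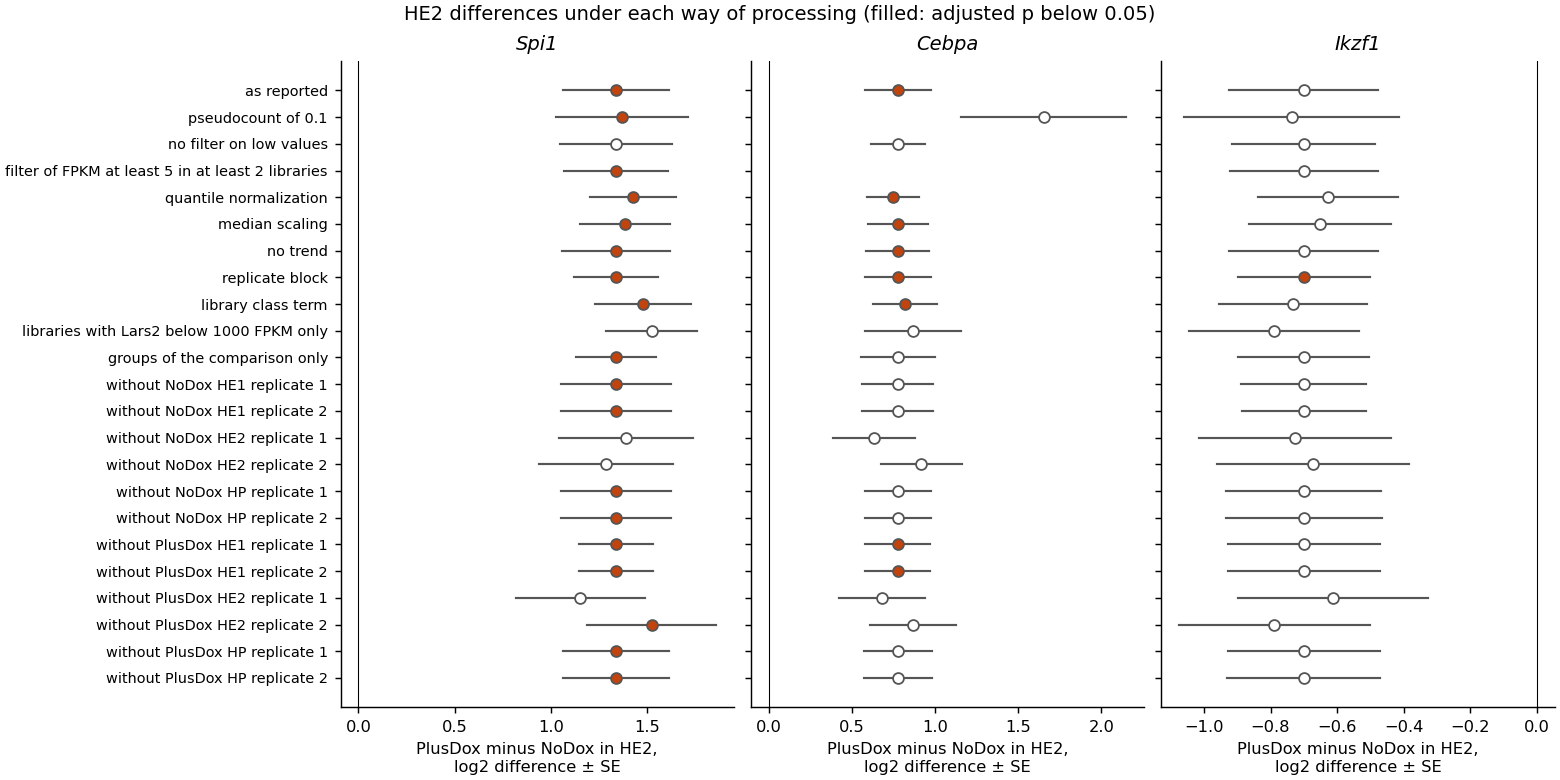
PlusDox minus NoDox log2 difference in HE2 (points, with SE bars) for Spi1, Cebpa and Ikzf1 as reported and under each alternative setting, with calls filled. Spi1 stays between 1.15 and 1.52, Cebpa between 0.63 and 1.65 and Ikzf1 between −0.79 and −0.61, and Cebpa has no point under the stricter filter, which removes it.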

How the data were processed

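Total RNA was sequenced from 12 libraries of sorted mouse cells in 6 groups of 2, prepared with a stranded kit and read paired-end in 1 pool, per the labels' protocols. Per the submitters' processing notes, the tools were StringTie 1.3.3, HISAT2 2.1.0 and Trimmomatic 0.32 on build mm10, with no annotation or strand setting stated. The deposited values carry no unit, and were taken to be the authors' FPKM because StringTie writes that unit and library sums differ. Values of repeated gene names were added. Without counts the true depth is unknown. Relative depth was read from the smallest steps of low values, where 54 of 66 pairs of libraries agreed within 0.1 on the log2 scale.

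Genes with at least 1 FPKM in at least 2 libraries (13316) were log2-transformed after adding 1. limma 3.58.1 in R 4.3.3 was fitted with 6 group means and an intensity trend, with 6 residual degrees of freedom, and p-values were two-sided and adjusted over all genes tested. With 2 libraries a group, they rest on the spread pooled over groups and moderated over genes. Python 3.11.15, numpy 2.4.6, pandas 2.3.3 and matplotlib 3.10.9 did the rest.

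The 5 factors and the gene lists were chosen with earlier results of these data known. Named genes were the factors, the 5 genes nearest each in pattern with a mean of at least 5 FPKM in a group, and from each list up to 6 called genes by size and up to 2 uncalled genes with the highest mean. Other list genes were named for their known role or for being at or near 0, after their values were seen. Alternatives were a pseudocount of 0.1, no filter, a filter of 5 FPKM, quantile normalization, median scaling, no trend, a replicate block, a Lars2 class term, the Lars2-low libraries alone, the compared groups alone, and each library left out. For list genes the same settings were added after seeing the data. Results for some listed genes that the counts include are not reported here.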

Additional observations from a re-analysis of the deposited data

Results flagged for a closer look

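The doxycycline difference of Ptprc (CD45) in HE2 exceeded that in HE1 by 2.67 on the log2 scale in the test of the difference (limma adjusted p = 0.0397), on levels of 8.43 and 14.8 FPKM in PlusDox HE2, 0.590 and 1.17 FPKM in NoDox HE2, and at most 0.0659 FPKM in HE1, and the call was kept in 3 of 22 alternative settings. The difference of Ramp2, a receptor accessory protein of endothelium, in HP exceeded that in HE1 by 2.40 (limma adjusted p = 0.048), on levels of 17.8 and 17.7 FPKM in PlusDox HP, 5.00 and 4.28 FPKM in NoDox HP, 405 and 312 FPKM in PlusDox HE1 and 518 and 617 FPKM in NoDox HE1, and the call was kept in 12 of 22 settings.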

How the results depend on the processing

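Over 55 log2 differences of the factors and 1183 pairs of a difference and an alternative setting, direction and call stayed as reported in 1081, 50 lost the call, 21 gained it and 31 changed sign. The number of factors called in HE2 (2) was 1 with a pseudocount of 0.1, 0 without the filter, 1 with the filter of 5 FPKM, 0 in the Lars2-low libraries and 1 with the compared groups alone. In HE1 (0) it was 1 with quantile normalization and 1 with median scaling. For the mean of the populations (1) it was 2 with quantile normalization, 3 with median scaling, 2 without the trend, 3 with the class term and 0 in the Lars2-low libraries. At the step to HE2 in PlusDox (4) it was 1 in the Lars2-low libraries, and at the step to HP (3 in each arm) it was 1 with the filter of 5 FPKM and 0 in the Lars2-low libraries, in PlusDox and in NoDox. With single libraries left out these counts ran over 0 to 1 in HE1, 0 to 2 in HE2, 1 to 2 for the mean, 3 to 4 at the step to HE2 in PlusDox, and, at the step to HP, 2 to 3 in PlusDox and 1 to 4 in NoDox. All genes called in HE2 (807) ranged over 7 to 2296, in HE1 (182) over 0 to 459 and in HP (111) over 3 to 305.

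None of the differences that changed sign had been called. With a pseudocount of 0.1, HE2 minus HE1 was −0.2966 for Spi1, −0.0665 for Irf8 and 0.2425 for Ikzf1, and for Irf8 HP minus HE2 was −0.1066 and HP minus HE1 −0.1731. With quantile normalization Irf8 gave −0.0037 in HE2, −0.1389 for HE2 minus HE1, −0.0247 for HP minus HE1, and −0.159 in PlusDox and −0.0201 in NoDox at the step to HE2, and Cebpb gave 0.0085 in HP. Cebpb at the step to HP in NoDox was 0.0008 with median scaling and 0.017 in the Lars2-low libraries, where Spi1 HE2 minus HE1 was −0.0731. With the class term Irf8 HE2 minus HE1 was −0.0429. With single libraries left out, Cebpa ran over −0.0456 to 0.1798 in HE1, and in HP Cebpb over −0.1601 to 0.1326, Irf8 over −0.1452 to 0.5677 and Ikzf1 over −0.1801 to 0.0675. HE2 minus HE1 ran over −0.1947 to 0.7772 for Spi1, −0.0591 to 0.1121 for Irf8 and −0.546 to 0.1264 for Ikzf1. For Irf8 HP minus HE2 ran over −0.2682 to 0.4446 and HP minus HE1 over −0.2417 to 0.4711, for Spi1 HP minus HE1 over −0.862 to 0.1098, and Cebpb at the step to HP in NoDox over −0.3531 to 0.0944. The cause was not tested.

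Correlations of same-numbered deviations between groups ran from −0.1004 to 0.5261 and exceeded 0.1 in 12 of 15 pairs of groups. Since not all did and no label states what a number shares, the numbers were not taken to pair the libraries. Every pair at or under 0.1 held NoDox HE1, the group whose Lars2-high library was replicate 1. Pairing was thus not settled either way, and the replicate block was run as an alternative. With the replicate block the count of factors called was 1 in HE1 (Spi1), 3 in HE2 (Ikzf1 at −0.70, limma adjusted p = 0.0301, beside Spi1 and Cebpa) and 3 for the mean. Of the 3, 24 and 10 listed genes called in HE1, HE2 and HP, none kept its call in the Lars2-low libraries alone. Without the filter on low values 2, 11 and 7 of them kept it, and with a pseudocount of 0.1 the numbers were 2, 18 and 8. Depth limits what can be said of levels under 1 FPKM, which Cebpa, Irf8 and Ikzf1 had in both PlusDox HE1 libraries and Cebpa, Irf8 and Spi1 in both NoDox HE1 libraries. Cebpa and Irf8 had such levels in both NoDox HE2 libraries as well, and Irf8 in both PlusDox HE2 libraries. The Cebpa call in HE2 thus rests on a NoDox level under this limit.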
